A study of Mus musculus with 6 samples.

Results

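Astrocyte lineage genes were followed in neural stem cells (NSC), as a set of 10 genes listed by name: Gfap, Aqp4, Aldh1l1, S100b, Slc1a2, Gja1, Gjb6, Agt, Glul and Nfia. They make up 10 of the 50686 genes counted, and 9 of them are among the 15521 genes with enough reads to be tested. The set was chosen by measured values, since Agt and Aldh1l1 were known to move in opposite directions between these very libraries, so the differences below are descriptions. Whether a gene of the set was past the threshold of the fit (called) is stated in the same way and supports nothing. RNASeq counts came from 2 wild-type NSC cultures and from 2 cultures labelled NSC Bmi1Over, and H3K27me3 ChIPSeq peaks came from 1 library of each group. The NSC were derived from E16.5 mouse embryos and grown with EGF and FGF. The NSC Bmi1Over cultures came from embryos of the same age and of the genotype STOPFloxBmi1;NestinCre, in which a Cre recombinase under the Nestin promoter releases a Bmi1 transgene in neural progenitors. Glioblastoma-initiating cells of the same study were not analysed here.

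Astrocytes arise from neural stem cells that switch from making neurons to making glia. Signals of the IL-6 cytokine family, BMP and Notch act on this switch through STAT3, SMAD and RBPJ, and Nuclear Factor I proteins such as Nfia open it. The maturing astrocyte then acquires glutamate uptake and glutamine synthesis, gap junctions, perivascular water channels and GFAP filaments. Several of these genes are already used by radial glia and cultured neural stem cells, so that their presence alone does not mark an astrocyte. H3K27me3 is the repressive histone mark laid down by Polycomb Repressive Complex 2, and Bmi1 is a component of Polycomb Repressive Complex 1.

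The promoters of Agt, Aldh1l1, Gfap and Gjb6 are shown, because they belong to the pair of genes that defined the set, to the classical astrocyte filament gene and to the only gene of the set with an H3K27me3 peak. Each is the 250 bases before the gene's start, from RefSeq (build GRCm38.p6), 5′ to 3′ on the strand of the gene. A promoter of 9 of the 10 genes was matched, and Aqp4 is named only. In the first 3 sequences the capitals mark matches, on either strand, to one of 6 motifs that are spelled out after them. In the promoter of Gjb6 the capitals mark the bases covered by the NSC peak. The Agt promoter lies at chr8:124569707-124569956 on the minus strand, that of Aldh1l1 at chr6:90550543-90550792 on the plus strand, that of Gfap at chr11:102897201-102897450 on the minus strand and that of Gjb6 at chr14:57133612-57133861 on the minus strand. The RefSeq starts of Aldh1l1 and Gfap lie inside the longer span that GENCODE gives these genes.
Agt: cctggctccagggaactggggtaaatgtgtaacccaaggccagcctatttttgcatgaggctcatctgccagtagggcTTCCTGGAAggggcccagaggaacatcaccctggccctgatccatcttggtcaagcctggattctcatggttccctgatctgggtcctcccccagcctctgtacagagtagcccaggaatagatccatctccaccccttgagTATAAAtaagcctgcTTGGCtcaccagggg
Aldh1l1: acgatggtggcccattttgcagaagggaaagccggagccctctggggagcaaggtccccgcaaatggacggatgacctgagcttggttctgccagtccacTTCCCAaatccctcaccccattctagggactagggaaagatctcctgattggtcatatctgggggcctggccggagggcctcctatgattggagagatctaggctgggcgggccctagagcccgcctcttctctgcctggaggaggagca
Gfap: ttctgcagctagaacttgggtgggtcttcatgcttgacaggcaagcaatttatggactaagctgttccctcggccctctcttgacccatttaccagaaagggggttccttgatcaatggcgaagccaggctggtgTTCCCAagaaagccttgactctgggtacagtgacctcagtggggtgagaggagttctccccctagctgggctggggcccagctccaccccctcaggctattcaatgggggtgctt
Gjb6: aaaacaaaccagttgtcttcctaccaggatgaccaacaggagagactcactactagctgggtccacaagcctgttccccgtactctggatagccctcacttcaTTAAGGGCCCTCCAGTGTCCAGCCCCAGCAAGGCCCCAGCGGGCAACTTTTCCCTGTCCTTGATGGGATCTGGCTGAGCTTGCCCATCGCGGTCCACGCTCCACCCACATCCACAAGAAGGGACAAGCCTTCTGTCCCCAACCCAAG

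The Agt promoter held a STAT match from position -172 to -164, a TATA box from -30 to -25 and a Nuclear Factor I match from -15 to -11, counted back from the start of the gene. The promoters of Aldh1l1 and Gfap each held 1 RBPJ match, on the strand opposite to the printed one, from -150 to -145 and from -115 to -110. Among the promoters not shown, S100b held 3 Nuclear Factor I matches and 1 RBPJ match, and Glul held 2 Nuclear Factor I matches and an E-box. Slc1a2 held 1 Nuclear Factor I match, and Gja1 and Nfia held none of the 6 motifs. The Slc1a2 window (chr2:102706188-102706437) lies inside the GENCODE span of the gene, chr2:102658659-102790784. That of Nfia (chr4:97581693-97581942) lies before the GENCODE span, chr4:97772734-98118874. The peak distances below use GENCODE starts. For the STAT motif, TTCNNNGAA was searched and found in 7.02% of all 32851 promoters of this length. The Nuclear Factor I motif was the short core TTGGC, which 41.5% of promoters held. For RBPJ the letters were TGGGAA, held by 21.6%, and some spellings of the STAT motif contain them on the other strand, though the Agt match does not. The remaining motifs were the TATA box TATAAA with 12.4% of promoters, the E-box CAGCTG with 13% of promoters, and for the glucocorticoid receptor AGAACA with 16.1% of promoters. A match is a description of letters in a window and not a binding site.

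Bmi1 itself was read in the 4 libraries first. It stood at 133 and 124 CPM (counts scaled to the TMM-normalised library size) in NSC replicates 1 and 2, and at 119 and 113 CPM in replicates 1 and 2 labelled NSC Bmi1Over. The libraries labelled NSC Bmi1Over were not higher for Bmi1 (log2 fold change -0.15, SE 0.12, adjusted p = 0.463 in edgeR's quasi-likelihood test), which goes against their label, and directions below are those of the libraries so labelled. Whether reads of the transgene are counted on Bmi1 was not tested. The libraries held between 18112100 and 61353076 counted reads. Unmapped reads made up 11.2% and 13.8% of the NSC libraries and 16.2% and 17.6% of the libraries labelled NSC Bmi1Over. Neural stem cell markers summed to between 7456 and 8401 CPM in all 4 libraries, with no call among 13. Neuron markers summed to between 1041 and 1126 CPM, most of it Map2 at 788 to 919 CPM, and 1 of 10 tested was called, Syt1, at 9.13 and 27.2 CPM for NSC against 66.5 and 95.8 CPM. Gad1 had a log2 fold change of -1.22 and was not called. Microglia markers were higher in the second group, at 31.5 and 37.7 CPM for NSC against 45.2 and 50.4 CPM, with all 3 tested markers above 0 (median log2 fold change 0.79) and none called. Endothelial and mural markers were at 5.04 and 6.33 CPM for NSC against 8.63 and 10.8 CPM, with all 4 tested markers above 0 (median 0.71) and 1 called. Mesenchymal markers were at 50.3 and 46.5 CPM for NSC against 32.8 and 41.6 CPM, with no call among 4. Oligodendrocyte markers were at 341 and 402 CPM for NSC against 332 and 570 CPM, and here the libraries labelled NSC Bmi1Over differed from each other, as Gpr17 was at 0.743 CPM in replicate 1 and 22.1 CPM in replicate 2 and Sox10 at 0.286 and 4.64 CPM. The part of these marker differences in the results below was not tested. Of the defining markers, Trem2 and Itgam of microglia, Cldn5 of endothelium, Slc17a6 of neurons and the globin genes Hbb-bs, Hbb-bt, Hba-a1 and Hba-a2 had no read in any library, and erythroid markers summed to at most 0.602 CPM. In bulk RNA, fewer cells of a type and less RNA per cell cannot be told apart.

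Agt and Aldh1l1 moved apart. Agt, which encodes angiotensinogen, the precursor of the angiotensin peptides and in brain a product of astrocytes, stood at 15.6 and 16.6 CPM in NSC and at 47.4 and 46.2 CPM in the libraries labelled NSC Bmi1Over. Both groups were tight and lay far from each other. The group means were 16.1 CPM ± 0.718 (SD, n = 2) and 46.8 CPM ± 0.870 (SD, n = 2), a 2.91-fold difference with a log2 fold change of 1.54 (SE 0.13). Aldh1l1, the cytosolic 10-formyltetrahydrofolate dehydrogenase whose promoter is widely used to mark astrocytes, stood at 122 and 94.2 CPM in NSC and at 66.0 and 53.3 CPM in the libraries labelled NSC Bmi1Over. The 4 libraries did not overlap between groups, but each group was more spread than for Agt. The means of Aldh1l1 were 108 CPM ± 19.8 (SD, n = 2) and 59.6 CPM ± 8.998 (SD, n = 2), which gave a log2 fold change of -0.86 (SE 0.17), or 0.549 of the NSC level. Within a library, the ratio of Agt to Aldh1l1 in CPM was 0.127 and 0.176 for NSC but 0.719 and 0.867 for the libraries labelled NSC Bmi1Over.

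**Figure D1:**
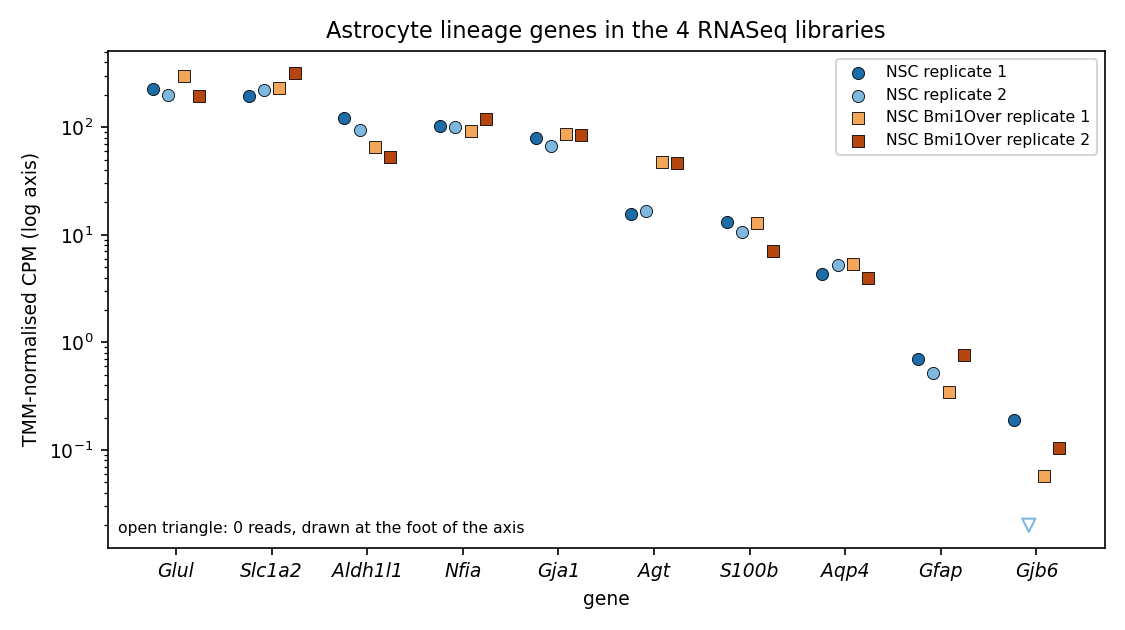
TMM-normalised CPM (log axis) of the 10 astrocyte lineage genes in each of the 4 RNASeq libraries, with circles for NSC, squares for the libraries labelled NSC Bmi1Over, and an open triangle for 0 reads. The pairs of Agt and of Aldh1l1 separate in opposite directions, from 15.6 and 16.6 to 47.4 and 46.2 CPM and from 122 and 94.2 to 66.0 and 53.3 CPM.

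Among all tested genes, 181 had a larger log2 fold change than Agt and 195 a lower one than Aldh1l1. Both genes were called at an adjusted p under 0.05, as were 2.15% of all tested genes, 2.03% of them as higher and 0.122% as lower in the libraries labelled NSC Bmi1Over. This count of 2 in 9 restates how the set was chosen. Only 19 genes were called lower, and by size Aldh1l1 was the 4th among them. The order of the libraries by Aldh1l1 (NSC replicate 1 highest, then NSC replicate 2, then replicates 1 and 2 labelled NSC Bmi1Over) was also their order by the unmapped share, from 11.2% up to 17.6%, whose part in the result was not tested. Agt did not keep that order inside the second group. Without NSC replicate 1 the log2 fold change of Aldh1l1 was -0.66, and without replicate 2 labelled NSC Bmi1Over it was -0.71, and in both cases the gene was no longer called. Agt stayed called whichever library was left out, with a log2 fold change between 1.49 and 1.58.

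Aldh1l1 also shares sequence with its neighbours. Of its 4516 bp of exons (gene at chr6:90486427-90600203, mm10, plus strand), 499 bp (11%) overlap the antisense gene Gm15756 and 105 bp overlap the lincRNA Gm45901. The unstranded count of Aldh1l1, which leaves out reads that fall on overlapping genes, was 87.5% to 89.4% of the sum of its counts on both strands. With that sum in place of the unstranded count, its log2 fold change was -0.83. The single transcript of Agt (chr8:124556534-124569706, minus strand) overlaps no other exon, and its unstranded count was 100% of that sum.

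The enzymes and transporters of glutamate handling had the highest counts of the set. Glul, the glutamine synthetase that turns glutamate and ammonia into glutamine, stood at 227 and 200 CPM in NSC and at 298 and 195 CPM in the libraries labelled NSC Bmi1Over. The pair labelled NSC Bmi1Over enclosed the NSC pair, and its replicates differed from each other by more than the groups did. The log2 fold change of Glul was 0.20 (SE 0.20), and it became -0.14 without replicate 1 labelled NSC Bmi1Over. Slc1a2, the glutamate transporter GLT-1, stood at 196 and 223 CPM in NSC and at 232 and 316 CPM in the libraries labelled NSC Bmi1Over. The groups did not overlap, though the lowest library labelled NSC Bmi1Over lay only just above the highest NSC library. Slc1a2 had a log2 fold change of 0.39 (SE 0.18) and was not called. It was 0.59, and called, without replicate 1 labelled NSC Bmi1Over, 0.14 without replicate 2 labelled NSC Bmi1Over, and 0.37, and called, with the replicate number as a block. Its 4 libraries follow the order of the unmapped share too, rising with it.

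Of the gap junction genes, Gja1 was read in every library and Gjb6 hardly at all. Gja1, which encodes connexin 43, the main connexin of astrocytes and also of radial glia, stood at 79.0 and 66.6 CPM in NSC and at 85.5 and 83.9 CPM in the libraries labelled NSC Bmi1Over. The groups did not overlap, but the difference was small, with a log2 fold change of 0.22 (SE 0.13) and no call. Scaled by library size alone, which shifted the median of all tested genes to -0.165, the log2 fold change of Gja1 was 0.07. Gjb6, which encodes connexin 30, a connexin of more mature astrocytes, had 6 reads in NSC replicate 1, 0 in NSC replicate 2, 1 in replicate 1 labelled NSC Bmi1Over and 6 in replicate 2 labelled NSC Bmi1Over. It was close to silent in every library and was not tested. A count of 0 in NSC replicate 2 allows up to 3 reads, or 0.119 CPM, and covers counting error only.

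Gfap and Aqp4 were low, and S100b was at a middle level. Gfap, the intermediate filament protein by which astrocytes are most often recognised, had 22 and 13 reads in NSC and 6 and 44 reads in the libraries labelled NSC Bmi1Over, that is 0.697 and 0.514 CPM against 0.343 and 0.770 CPM. The lowest and the highest library both carried the NSC Bmi1Over label, and the log2 fold change of 0.03 had an SE of 0.44. Leaving out 1 library moved it to anything between -0.83 and 0.33. Aqp4, the water channel of astrocyte endfeet, stood at 4.34 and 5.26 CPM in NSC and at 5.37 and 3.97 CPM in the libraries labelled NSC Bmi1Over. These pairs were interleaved as well, with a log2 fold change of -0.06 (SE 0.25). S100b, a calcium-binding protein of astrocytes and also of some oligodendrocyte precursors, stood at 13.2 and 10.6 CPM in NSC and at 12.9 and 7.03 CPM in the libraries labelled NSC Bmi1Over. Its groups overlapped and its log2 fold change was -0.29 (SE 0.28). That value depended on a single library, as it was -0.76, and called, without replicate 1 labelled NSC Bmi1Over and 0.12 without replicate 2 labelled NSC Bmi1Over.

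Nfia, the Nuclear Factor I transcription factor that opens the gliogenic phase, was at 102 and 101 CPM in NSC and at 91.4 and 119 CPM in the libraries labelled NSC Bmi1Over. The NSC pair fell between the other pair. Its log2 fold change was 0.05 (SE 0.15), and it changed sign to -0.10 when only library size was used for scaling.

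Over the whole set, 6 of the 9 tested genes had a log2 fold change above 0 and 3 below, with a median of 0.05 beside -0.0139 over all tested genes. Apart from Agt and Aldh1l1, 7 tested genes were not called. The groups did not overlap for 4 of the 9, and they did not overlap for 59.0% of all tested genes. Summed over the 10 genes, the CPM were 760 and 718 for NSC and 839 and 826 for the libraries labelled NSC Bmi1Over. The most abundant genes weigh most in this sum. Group means were 210 and 274 CPM for Slc1a2 and 214 and 247 CPM for Glul, neither of them called, and 108 and 59.6 CPM for Aldh1l1.

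**Figure D2:**
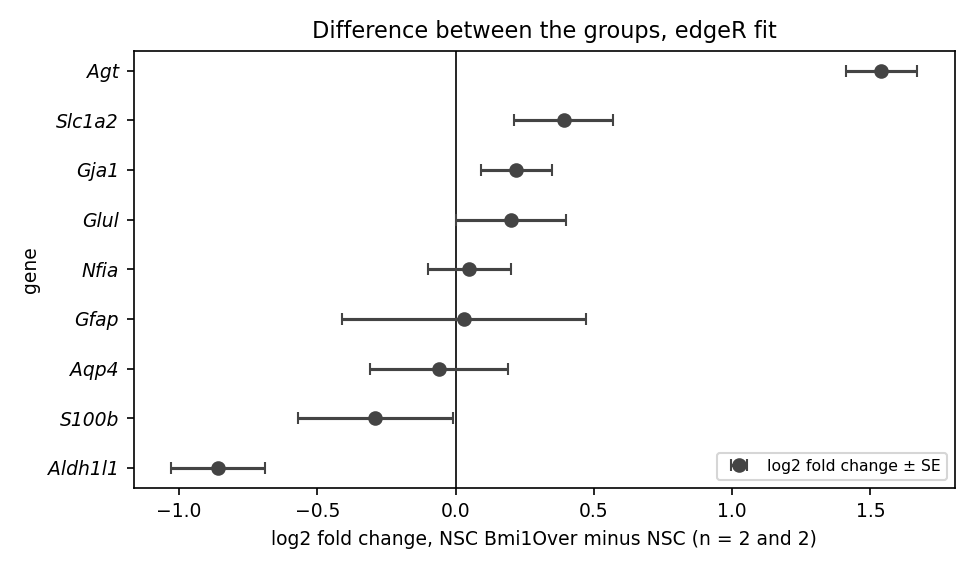
Log2 fold change (libraries labelled NSC Bmi1Over minus NSC, n = 2 and 2) of the 9 tested astrocyte lineage genes from the edgeR fit, with bars of 1 SE. Agt at 1.54 and Aldh1l1 at -0.86 stand at the ends, and the other 7 genes lie between -0.29 and 0.39.

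Levels of different genes were compared per length, as FPKM, the counts scaled to both library size and the length of the exons. In NSC the order was Glul with 64.3 FPKM ± 5.61 (SD, n = 2), Aldh1l1 with 24.0 ± 4.38, Slc1a2 with 15.96 ± 1.44, Nfia with 9.32 ± 0.0627, Agt with 8.50 ± 0.380, S100b with 8.0 ± 1.25, Gja1 with 7.10 ± 0.856, Aqp4 with 0.770 ± 0.104, Gfap with 0.144 ± 0.0307 and Gjb6 with 0.0356 ± 0.0503. The libraries of S100b overlapped those of Agt and also those of Gja1, so S100b was not separated from either neighbour by its spread, whereas Agt and Gja1 did not overlap. In the libraries labelled NSC Bmi1Over, Glul still led with 74.2 FPKM ± 22.0 (SD, n = 2), followed by Agt with 24.7 ± 0.460, Slc1a2 with 20.9 ± 4.57, Aldh1l1 with 13.2 ± 1.99, Nfia with 9.66 ± 1.79, Gja1 with 8.26 ± 0.110, S100b with 6.72 ± 2.80, Aqp4 with 0.749 ± 0.158, Gfap with 0.132 ± 0.0716 and Gjb6 with 0.0303 ± 0.0127. By the union of exons, Agt thus passed from 5th to 2nd place and Aldh1l1 from 2nd to 4th. The place of Gja1 rests on the length used, because the union of its exons is 10257 bp and its longest transcript 3889 bp. With the longest transcript, Gja1 had 18.7 FPKM in NSC and was 3rd, and Agt was 6th. Places in the libraries labelled NSC Bmi1Over were read with the union of exons only. Gfap, Aqp4 and Gjb6 were the lowest 3 genes in both groups under either length in NSC, so the cultures carried Glul, Slc1a2 and Aldh1l1 with almost no Gfap.

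**Figure D3:**
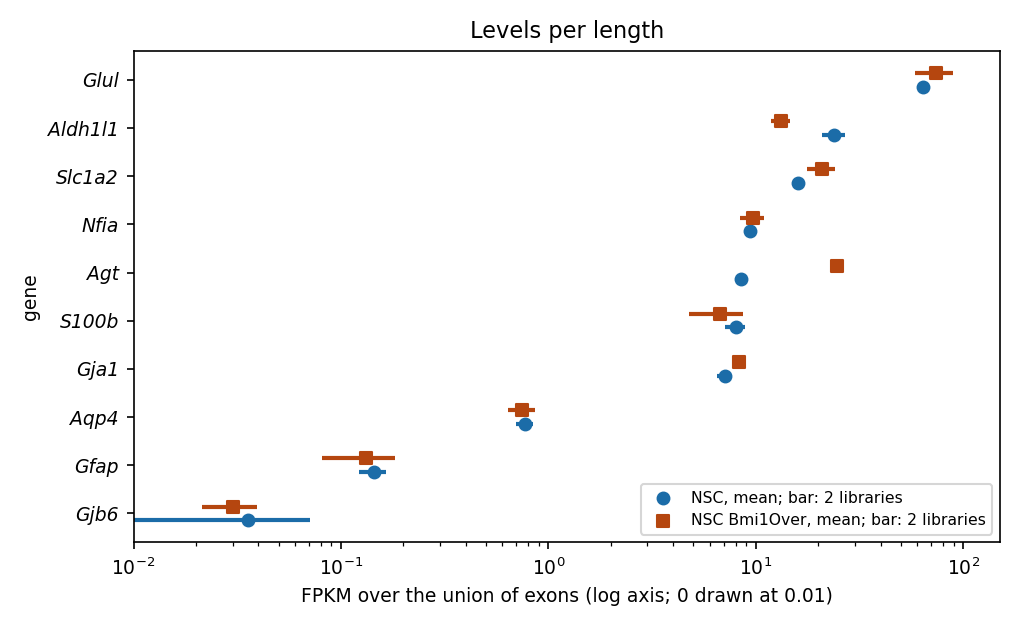
FPKM over the union of exons (log axis) of the 10 astrocyte lineage genes, with a marker for the mean of each group and a bar that joins its 2 libraries (0 drawn at 0.01). Agt moves from 8.50 to 24.7 FPKM and Aldh1l1 from 24.0 to 13.2 FPKM, while Aqp4, Gfap and Gjb6 stay below 1 FPKM.

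The genes most like Agt and Aldh1l1 across the 4 libraries were found by the Euclidean distance between centred log2(CPM + 0.5) profiles over the 13320 genes whose mean reached 1 CPM. Nearest to Agt were Colec12, a scavenger receptor of the collectin family (distance 0.0803), 1500015O10Rik (distance 0.0963) and Bace2, a protease related to the beta-secretase (distance 0.101). Bace2 stood at 15.1 and 16.6 CPM in NSC and at 50.7 and 46.6 CPM in the libraries labelled NSC Bmi1Over, close to Agt in every library. Colec12 was far lower, at 0.665 and 0.672 CPM in NSC and at 2.80 and 2.64 CPM in the libraries labelled NSC Bmi1Over. Its log2 fold change was 2.01, against 1.54 for Agt, and the 0.5 added before the log narrows differences most at such low levels. Nearest to Aldh1l1 were Cplx1, a complexin of the synaptic release machinery (distance 0.0771), Arhgef3, a guanine nucleotide exchange factor (distance 0.0994) and 2810459M11Rik (distance 0.125). None of these 6 genes belongs to the lists of astrocyte, gliogenic or folate genes described next. With 4 libraries, likeness of this kind rests on few points.

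H3K27me3 peaks were almost absent from the set. A gene was taken to have a promoter peak where the window of 5 kb on either side of an annotated start site met a peak. Gjb6 was the only gene of the 10 with one in NSC, and no gene of the set had one in NSC Bmi1Over. Of 22028 protein-coding genes, 8.83% had a promoter peak in NSC and 4.38% in NSC Bmi1Over, so that 1 of 10 and 0 of 10 are near the background. The Gjb6 peak lies at chr14:57132329-57133758 (mm10), is 1430 bp long, covers a start site and 12.4% of the gene (chr14:57123303-57133611, minus strand) and 147 of the 250 promoter bases printed above. Its enrichment over the background of the authors' peak caller was 5.15-fold, with a -log10 q of 5.01. In NSC Bmi1Over the nearest peak to a Gjb6 start was 19.3 kb away. There is 1 ChIPSeq library per group, so that this difference has no replicate check, the read totals in the study's methods reached higher for NSC than for NSC Bmi1Over (the part of depth in the difference was not tested), and Gjb6 RNA was close to 0 in both groups.

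For Agt and Aldh1l1 the nearest peak was far in both libraries. It was 181 kb away from an Agt start in NSC and in NSC Bmi1Over, and 828 kb and 1061 kb away from an Aldh1l1 start. Gfap was the next nearest after Gjb6, at 42.4 kb in NSC and 42.8 kb in NSC Bmi1Over. Glul was 90.0 kb from a peak in NSC and 819 kb in NSC Bmi1Over, and Slc1a2 was 108 kb and 239 kb away. S100b, Aqp4, Gja1 and Nfia had no peak closer than 299 kb. In both groups, Gfap and Aqp4 were low in RNA without a called H3K27me3 peak at the gene.

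**Figure D4:**
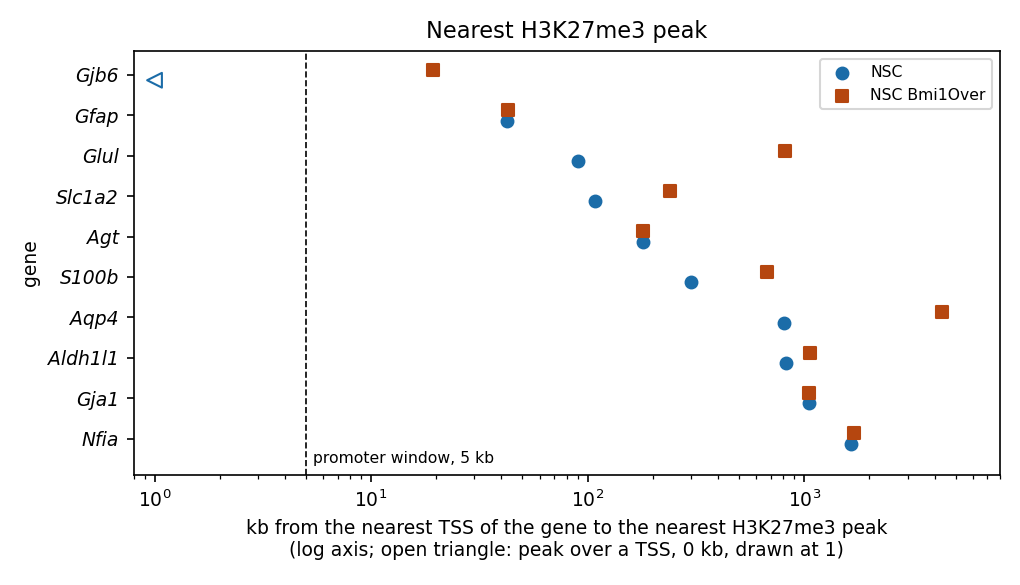
Distance in kb (log axis) from the nearest annotated start site of each astrocyte lineage gene to the nearest H3K27me3 peak in the 1 NSC library (circles) and the 1 NSC Bmi1Over library (squares), with the 5 kb promoter window as a dashed line. Only Gjb6 in NSC, drawn as an open triangle for a peak over a start site, lies inside the window.

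Around these 10 genes, 10 lists of related genes were read in the same way. They hold 233 genes, of which 180 were tested, 15 were called higher and 1 lower. The called genes are 8.89% of those tested, beside 2.15% of all tested genes. The lists were chosen with earlier results of these data known, so this share is a description and supports nothing. The median log2 fold change over the 180 genes was 0.0552. The groups did not overlap for 63.9% of them, beside 59.0% of all tested genes. The adjusted p-values that follow are from edgeR's quasi-likelihood test over all tested genes, with 2 libraries per group. Most calls lay near the threshold, and leaving out 1 library moved their number from 16 to between 6 and 53.

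Among regulators of gliogenesis, 2 of 34 tested genes were called higher, 0 were called lower and the median log2 fold change was -0.149. Osmr, a receptor subunit for oncostatin M, had a log2 fold change of 2.12 (SE 0.36, adjusted p = 0.0370) at levels of only 0.380 and 0.554 CPM in NSC and 1.66 and 2.28 CPM in the libraries labelled NSC Bmi1Over. Bmp2, a BMP ligand, had a log2 fold change of 1.63 (SE 0.33, adjusted p = 0.0471) and was below 2 CPM in every library. The most abundant genes of the list, Egfr and Notch1, were not called, with log2 fold changes of 0.18 (SE 0.16) and 0.34 (SE 0.17).

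Of 39 other astrocyte genes tested, 2 were called higher and none lower, with 16 above 0, 23 below 0 and a median of -0.131. Clu, the secreted chaperone clusterin, stood at 11.6 and 13.9 CPM in NSC and at 31.0 and 33.7 CPM in the libraries labelled NSC Bmi1Over (log2 fold change 1.35, SE 0.15, adjusted p = 0.00792). Cst3, the protease inhibitor cystatin C, had a log2 fold change of 0.89 (SE 0.18, adjusted p = 0.0471). Slc1a3, the glutamate transporter GLAST, was at 1839 and 2228 CPM in NSC and at 2533 and 3063 CPM in the libraries labelled NSC Bmi1Over and was not called (log2 fold change 0.46, SE 0.23), nor was the radial glial lipid-binding protein Fabp7 (log2 fold change -0.42, SE 0.20). Some genes of the list lay just short of the threshold in the other direction and are named here after their values were seen: the glycolytic enzyme gene Aldoc (log2 fold change -0.80, SE 0.17, adjusted p = 0.0508 by edgeR) and the potassium channel gene Kcnj10 (log2 fold change -0.79, SE 0.16, adjusted p = 0.0513 by edgeR).

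Genes known from reactive astrocytes held the most calls, with 6 of 25 tested genes higher, none lower and a median log2 fold change of 0.697. Emp1, a membrane protein of the epithelial membrane protein family, stood at 11.5 and 10.6 CPM in NSC and at 34.7 and 31.8 CPM in the libraries labelled NSC Bmi1Over (log2 fold change 1.58, SE 0.14, adjusted p = 0.00390). Cp, the copper-binding ferroxidase ceruloplasmin, had a log2 fold change of 1.5 (SE 0.16, adjusted p = 0.00776). The hyaluronan receptor Cd44 (log2 fold change 0.74), the chemokine Cxcl10 (1.92), the tetraspan protein Tm4sf1 (1.89) and Osmr were the others. In the same list Vim, at between 1341 and 1520 CPM, was not called (log2 fold change -0.10, SE 0.19), and Lcn2 had no read in any library.

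The intermediate filament genes, the partners of Gfap, showed no call among 8 tested by edgeR at an adjusted p under 0.05, and 1 at an unadjusted p under 0.05. Nes, which encodes nestin, stood at between 915 and 1148 CPM with a log2 fold change of 0.08 (SE 0.19).

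For the renin-angiotensin genes around Agt, 1 of 10 tested genes was called higher, none lower, and the median was 0.601. This was Ace, the angiotensin-converting enzyme, at 2.19 and 1.98 CPM in NSC and at 4.28 and 5.67 CPM in the libraries labelled NSC Bmi1Over (log2 fold change 1.27, SE 0.26, adjusted p = 0.0471). Ren1, which encodes renin, the enzyme that cleaves angiotensinogen, had no read in any library, and neither had the receptor gene Agtr1b. The cathepsin gene Ctsd and the prorenin receptor gene Atp6ap2, the most abundant of the list, had log2 fold changes of 0.72 (SE 0.16, adjusted p = 0.0574) and 0.67 (SE 0.17, adjusted p = 0.0722).

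In the folate one-carbon genes around Aldh1l1, 1 of 26 tested genes was called higher and 1 lower, with a median of -0.154. The gene called lower was Aldh1l2, the mitochondrial counterpart of Aldh1l1, at 145 and 121 CPM in NSC and at 73.4 and 80.7 CPM in the libraries labelled NSC Bmi1Over (log2 fold change -0.78, SE 0.14, adjusted p = 0.0382). Its exons overlap an antisense protein-coding gene over 1056 bp, so its unstranded count is also partial. Shmt2, the mitochondrial serine hydroxymethyltransferase, had a log2 fold change of -0.56 (SE 0.15, adjusted p = 0.0801). Folr1, a folate receptor that also marks choroid plexus, rose from 0.982 and 0.791 CPM to 5.94 and 4.55 CPM (log2 fold change 2.53, SE 0.29, adjusted p = 0.00908). The summed ependymal and choroid plexus markers were 33.4 and 24.5 CPM in NSC and 49.4 and 34.2 CPM in the libraries labelled NSC Bmi1Over, with 2 of 6 tested markers called (Folr1 and Aqp1) and Tmem212 at 0, and their part in the result was not tested.

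Among glutamate and glutamine genes no call was made over 18 tested by edgeR, with 7 at an unadjusted p under 0.05 and a median of 0.170. Of 8 tested connexin, pannexin and related genes, Gja4 was called higher (log2 fold change 2.04, SE 0.38, adjusted p = 0.0414) at under 2 CPM in every library, and Panx1 had a log2 fold change of 0.69 (SE 0.18, adjusted p = 0.0765). Among 15 endfoot and water channel genes, Lamb2, a laminin chain of basement membranes, stood at 108 and 124 CPM in NSC and at 229 and 238 CPM in the libraries labelled NSC Bmi1Over (log2 fold change 1.01, SE 0.14, adjusted p = 0.0179), and Aqp1, a water channel of choroid plexus, was called at 0.444 to 2.12 CPM. The S100 family had no call over 6 tested by edgeR, and 1 at an unadjusted p under 0.05.

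**Figure D5:**
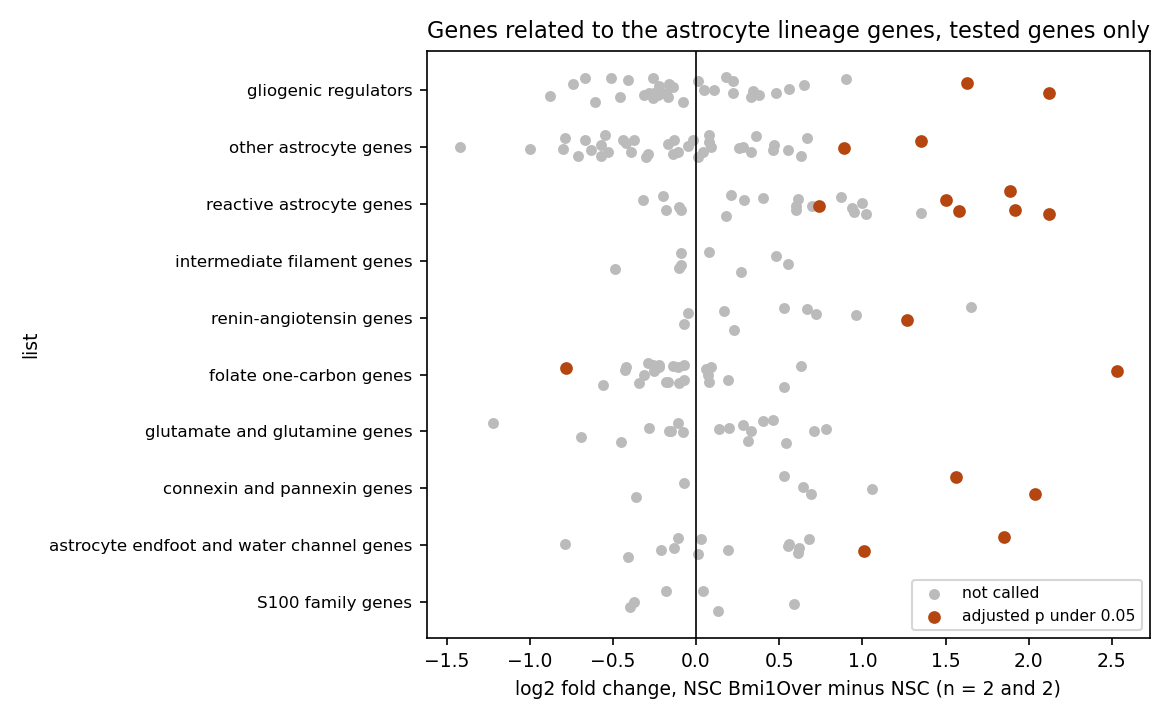
Log2 fold change (libraries labelled NSC Bmi1Over minus NSC, n = 2 and 2) of every tested gene of the 10 lists of related genes, 1 point per gene, with genes at an adjusted p under 0.05 coloured. Of the 16 coloured genes only Aldh1l2, at -0.78 in the folate list, lies below 0, and Osmr appears in 2 lists.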

How the data were processed

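RNASeq was made with the TruSeq RNA kit. The submitters' processing notes name Trim Galore, STAR, Bowtie2 2.3.4 and MACS2 with the mm10 (GRCm38) build, and the authors deposited unnormalised counts of reads per gene. The versions of STAR and MACS2 and the annotation used for counting are not given in the sources used here. The opening entries of each file (unmapped, multimapped, in no gene, ambiguous) stayed out of library sizes, leaving 65.9% to 72.2% of reads counted. Since the strand columns were nearly equal, unstranded counts were used. For ChIPSeq, the authors kept a single library per condition, and their deposited broad peaks carry a fold enrichment (a ratio) and the −log10 of the p-value and q-value. The deposited score was not used.

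Symbols were matched through GENCODE vM21, and 50462 of 50686 identifiers had an entry. The 15521 genes kept by filterByExpr (minimum count 10) were fitted in R 4.3.3 with edgeR 4.0.16 (TMM, quasi-likelihood F-test, Benjamini-Hochberg adjusted p, threshold 0.05), without the biotype filtering of the study. Standard errors are the log2 fold change over the root of its F statistic. The fit was tested on simulated data. FPKM used TMM library sizes and the union of exons. Peaks were read in Python 3.11.15. Depth was 18112100 to 61353076 counted reads; the peak lists give no depth. By the study's methods the weaker ChIPSeq libraries were dropped by read number and quality, and read totals reached higher in NSC than in NSC Bmi1Over, without being tied to the library kept. Replicates are separate cultures in the study's account, and replicates of a group differed by more than sampling noise.

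The 10 genes and the lists around them were chosen with earlier results of these data known. Besides the 10 genes, the text names from each list the called genes and up to 2 of the most abundant, the 3 genes nearest in profile to Agt and to Aldh1l1, Bmi1, and among the markers those called or at 0. Gpr17, Sox10, Map2 and Gad1 were named after their values were seen. Genes of the related lists with no read were named after their values were seen. A gene of the related lists that the rule would name is not reported here. Alternatives were DESeq2 1.42.0 (Wald test or size factors), library size alone, other filters, the strand sum, protein-coding genes, a replicate block, leaving out each library, and other peak windows and limits.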

Additional observations from a re-analysis of the deposited data

How the results depend on the processing

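Agt stayed called, and in the same direction, under all 12 alternatives (log2 fold change 1.39 to 1.58). Aldh1l1 stayed below 0 in all 12 (-1.04 to -0.66) and called in 10, the exceptions being without NSC replicate 1 and without replicate 2 labelled NSC Bmi1Over. Slc1a2 and Gja1 kept their sign throughout, whereas Gfap, Aqp4, S100b, Glul and Nfia changed sign in at least 1 alternative, and of these 5 only S100b was called in any. All called genes were 334, of which 94.3% were higher. They were 1488 with DESeq2's Wald test (87.2% higher), 537 with library size alone (64.4% higher), 2356 without a filter beyond 1 count (80.3% higher) and 3459 with the replicate block (70.3% higher). The called genes of the related lists were 16, and 50, 28, 63 and 80 in these 4 settings. The other 4 settings with all libraries gave 244 to 329 called genes and 11 to 16 of the related lists. Leaving out 1 library gave 176 to 2546 called genes, 1 to 4 genes of the set and 6 to 53 of the related lists. In these fits the lone library of a group is assumed to vary like the other group. The low end came without NSC replicate 1, and without replicate 2 labelled NSC Bmi1Over the counts were 230 and 9. Without NSC replicate 2 they were 1461 and 48, and the high end came without replicate 1 labelled NSC Bmi1Over, the shallowest library, where S100b and Slc1a2 were called too. The cause of these shifts was not tested. The replicate numbers are shared between groups by name only, with no label that pairs the cultures, and the correlation of same-numbered deviations was 0.235. With 2 pairs, the replicate block called 3 genes of the set, adding Slc1a2. The promoter peak counts of 1 and 0 held under all 4 peak alternatives. FPKM of Gja1 in NSC was 18.7 with the longest transcript in place of 7.10. Depth limits Gfap, with 6 to 44 reads, and Gjb6, with 0 to 6.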

Other observations

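The related lists with the highest shares of genes with a promoter H3K27me3 peak in NSC were the intermediate filament genes (60.0%) and the connexin and pannexin genes (40.9%), and differences between lists were not tested. Of the 10 intermediate filament genes other than Gfap, 6 had a promoter peak in NSC. These were the neuronal filament genes Prph, Nefl, Nefm, Nefh and Ina, and Plec, while Vim and Nes had none. In NSC Bmi1Over, 2 of them had one (Nefl and Nefh). Of the 22 connexin, pannexin and related genes other than Gja1 and Gjb6, 9 had a promoter peak in NSC and 3 in NSC Bmi1Over (Gja3, Gjb2 and Gjc1). Of 22028 protein-coding genes, 1945 had a promoter peak in NSC and 964 in NSC Bmi1Over, so fewer peaks were not particular to these lists. Across all related lists, 35 of 233 genes (15.0%) had a promoter peak in NSC, beside 8.83% of protein-coding genes. In NSC Bmi1Over, 15 of the 233 had one, beside 4.38% of protein-coding genes. These are single libraries without a replicate, and read totals in the study's methods reached higher for NSC than for NSC Bmi1Over, and these genes were picked out after their peaks were seen.

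Among the markers of other cells, Syt1, a synaptic vesicle protein of neurons, was higher in the libraries labelled NSC Bmi1Over (log2 fold change 2.18, SE 0.41, adjusted p = 0.0428 by edgeR), and was the only one of 10 tested neuron markers to be called. Cnp, an enzyme of oligodendrocytes and their precursors, was lower (log2 fold change -0.74, SE 0.15, adjusted p = 0.0458 by edgeR), the only call among 10 tested oligodendrocyte markers. Slco1c1, a thyroid hormone transporter of brain endothelium and astrocytes, was called higher at 0.634 to 2.71 CPM.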
